A study of Mus musculus with 4 samples.

Results

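Cells with high levels of Fmod, Comp, Prg4 and M1ap were described in single-cell RNA data from the intervertebral discs of mouse tails. Barcodes with at least 500 detected genes and under 10% mitochondrial UMIs (distinct transcript molecules) were kept as cells. Each cell was scored on 7 panels of 4 genes, as the mean over a panel's genes of the level standardised over all kept cells, where the level is the natural log of 1 plus the UMIs per 10000. Members were the cells whose score for Fmod, Comp, Prg4 and M1ap was the highest of the 7 and above 0.5. The rule found 299 members among 2417 kept cells. The other panels are named here by their genes, and the most used are panel A (Npy, Il11, Gdf5 and Cpm), panel B (Grem1, Cnmd, Sfrp5 and Frzb) and panel G (Myoc, Angptl7, Lepr and Ccdc3).

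The study compared punctured with unpunctured discs in 4 libraries, 1 control and 1 injured library in each of 2 rounds. All mice were wildtype C57BL/6 females of 12 weeks. Injured discs were pierced on both sides with a 30G needle and collected 7 days later, and control discs were not pierced but came from a more distal part of the same tails. The series text gives 6 mice and 30 discs pooled per group, and does not say whether this holds for each round. Cells were frozen, thawed and sorted for viability before capture. Tail level and injury therefore cannot be told apart, and the p-values measure only the spread between these pooled libraries.

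The annulus fibrosus is the ringed wall of the disc, with a cartilage-like inner zone rich in collagen II and aggrecan and a tendon-like outer zone built of collagen I fibrils. Fmod encodes fibromodulin, a small leucine-rich proteoglycan that binds collagen fibrils and guides their assembly. Comp encodes cartilage oligomeric matrix protein, which links collagens with other matrix proteins in tendon and cartilage. Prg4 encodes lubricin, the boundary lubricant of joint and tendon surfaces. M1ap encodes meiosis 1 associated protein, known from male germ cells and with no textbook role in the disc.

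The 4 genes lie apart in the genome (GENCODE vM21 gene models on GRCm38, the assembly also called mm10). Fmod spans chr1:134037254-134048277 on the plus strand, Comp chr8:70373558-70382066 on the plus strand, Prg4 chr1:150449412-150466165 on the minus strand and M1ap chr6:82946902-83030309 on the plus strand. All 4 are annotated as protein-coding, and the counts are per gene over its annotated transcripts. The RefSeq promoter table (GRCm38.p6) matched 2 of the 4. The 250 bases before the RefSeq start of each are shown because these are the rule genes that the table holds. Capitals mark the E-box CAGATG, the kind of site that the tendon regulator scleraxis recognises, read on both strands.
Fmod promoter (chr1:134037004-134037253, plus strand): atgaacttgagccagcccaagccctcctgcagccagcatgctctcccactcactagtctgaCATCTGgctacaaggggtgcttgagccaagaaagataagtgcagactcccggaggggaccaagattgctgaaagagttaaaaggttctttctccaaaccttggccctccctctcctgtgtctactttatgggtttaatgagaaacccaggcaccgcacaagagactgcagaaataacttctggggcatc
M1ap promoter (chr6:82946672-82946921, plus strand): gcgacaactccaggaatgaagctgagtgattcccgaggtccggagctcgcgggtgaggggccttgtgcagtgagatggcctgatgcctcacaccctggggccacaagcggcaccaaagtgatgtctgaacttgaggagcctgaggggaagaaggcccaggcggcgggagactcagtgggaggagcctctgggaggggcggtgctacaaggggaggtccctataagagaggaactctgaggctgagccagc
The Fmod window held 1 such E-box, read here as its reverse complement CATCTG, from base 62 of the window, and the M1ap window held none. Of 32851 promoter windows of the same length, 14.4% held it. Neither window held TGANTCA (the AP-1 site, in 6.75% of windows), AACAAT (a SOX core, in 9.42%) or TATAAA (in 12.4%) on either strand. These matches describe letters in the windows, and the study did not measure binding.

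The members' summed UMIs were 67484 (control) and 698023 (injured) in round 1, and 79574 (control) and 2125234 (injured) in round 2, from 11, 54, 7 and 227 cells. Only 18 members were thus control cells, which bounds every comparison with injury. Median UMIs per member were 6662 and 8537 in the control libraries and 12597 and 7865 in the injured libraries. In the same order of rounds, the other kept cells had medians of 3792.5 and 5229 (control) and 8544 and 5421 (injured). In round 1, 39 of 199 kept control barcodes also held at least 500 UMIs in the injured library. These included 2 of the 11 control members, with 967 and 1333 UMIs in the control library and 33.6 to 40.2 times as many in the injured one, and these 2 barcodes held 3 of the 11 M1ap UMIs of that library's members. In the injured library, 13 of 54 members had a barcode shared in this way. The round 2 barcodes were not compared.

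The rule's own genes are given as a description, with no test. Their level is in CPM, a gene's UMIs per 1000000 of the members' summed UMIs. Fmod stood at 1541 CPM (control) and 2021 CPM (injured) in round 1, and at 980 CPM (control) and 2029 CPM (injured) in round 2. The other kept cells had 493, 306, 443.8 and 307 CPM, so members were higher in each library. Comp in members, in the same order of libraries, reached 5750, 3361, 2350 and 3865 CPM, against 2439, 743, 1765 and 919 in the other cells. Prg4 in members reached 15130, 6534, 15420 and 6803 CPM, against 2198, 3782, 2145 and 2900 in the other cells. The high Prg4 of the control libraries came from single cells, since 1 cell held 77.6% of the members' Prg4 UMIs in control round 1 and 1 cell held 71.5% in control round 2. Median Prg4 per cell was 32.2 and 79.0 UMIs per 10000 in the control libraries and 37.8 and 44.7 in the injured ones. M1ap in members was at 163 CPM (control, 11 UMIs) and 215 CPM (injured) in round 1, and at 25.1 CPM (control, 2 UMIs) and 392 CPM (injured) in round 2. The other kept cells had 2.32, 22.0, 8.82 and 34.4 CPM of M1ap.

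**Figure D1:**
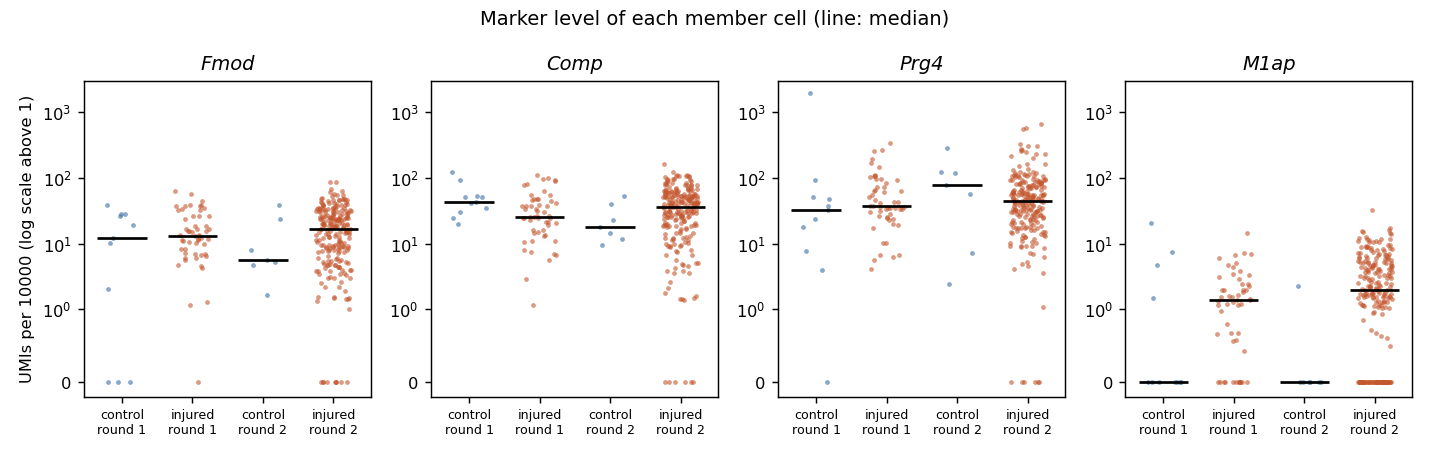
Level of the 4 rule genes in each of the 299 member cells, in UMIs per 10000 on an axis that is logarithmic above 1, by library; points are cells and lines are medians. The M1ap median is 0 in both control libraries and 1.38 and 1.98 in the injured libraries of rounds 1 and 2, while 1 control cell of round 1 reaches 1946 for Prg4.

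Most members carried Comp and Prg4, and M1ap was the least often seen of the 4. A UMI of Comp was found in 293 of 299 members, of Prg4 in 292, of Fmod in 286 and of M1ap in 213. All 4 genes were seen in 192 members, 3 in 102 and 2 in 5. With each cell thinned to 1000 UMIs, all 4 were seen in 37 of 297 members, 3 in 148 and 2 in 85. M1ap was found in 4 of 11 and 1 of 7 control members against 42 of 54 and 166 of 227 injured members. After thinning it was found in 1 of 10 and 0 of 7 control members and 7 of 54 and 53 of 226 injured members, a description since the rule used it. As a measure of free RNA, 88 cells with macrophage markers, which should lack these genes, had 8.94 CPM of M1ap, 8.94 of Fmod, 33.5 of Comp and 64.8 of Prg4, at a median of 4262 UMIs per cell; 29 were from injured round 1, 2 from control round 2, 57 from injured round 2 and 0 from control round 1. Barcodes under 100 UMIs in these 3 libraries held 104 to 180 CPM of Fmod, 212 to 648 of Comp, 358 to 940 of Prg4 and 3.52 to 16.9 of M1ap.

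The members graded into neighbouring cells. Their scores ran from 0.504 to 2.70 with a median of 1.20. The 3 lowest members scored 0.504, 0.533 and 0.540, and the 3 nearest cells below the threshold 0.497, 0.495 and 0.489. In 50 members the next panel's score was within 0.3, and in 110 a second panel also passed 0.5. By library, the next score was within 0.3 in 6 of 11 and 1 of 7 control members of rounds 1 and 2. It was so in 8 of 54 and 35 of 227 injured members. A second panel passed 0.5 in 6 and 0 of these control members and in 22 and 82 of the injured ones. The second-highest panel was panel G in 127 members, panel A in 58, the Aspn, Cthrc1, Postn and Thbs4 panel in 39, the Mmp3, Nos2, Cxcl1 and Cxcl2 panel in 38, the Saa3, Saa1, Saa2 and Chil1 panel in 20 and panel B in 17.

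Of the rule's genes, 3 were shared with the 211 cells of panel G. Panel G cells held 1566 CPM of Fmod, 5146 of Comp and 4779 of Prg4, against 1988, 3749 and 7160 CPM over all members, pooled over libraries. By library, Prg4 was higher in members in all 4, Comp in control round 1 only, and Fmod in control round 1 and injured round 2. M1ap, which the rule also used, was at 23.2 CPM in panel G cells and 336 CPM in members. In panel G cells M1ap was at 4.97, 16.3, 4.78 and 46.8 CPM in control and injured round 1 and control and injured round 2, below the members of the same library each time. In control round 2 this difference rests on 2 UMIs from 1 member cell.

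M1ap has close neighbours on chromosome 6. Dok1, an adaptor protein gene on the opposite strand, has its 3′ end 624 bases past the 3′ end of M1ap, so that the genes converge, and Loxl3, a collagen cross-linking oxidase of the lysyl oxidase family on the same strand, begins 3863 bases past the end of M1ap. Processed pseudogenes Gm19287 and Gm43985 lie within the M1ap gene and are not listed in the matrices. Loxl3 was at 283 CPM in members over all libraries, 99.3 in panel G cells and 53.3 in panel A cells. By library, members had 14.8 CPM of Loxl3 (control) and 238 (injured) in round 1, then 151 (control) and 312 (injured) in round 2, and the other cells 23.2, 54.4, 46.3 and 80.8. Members were thus higher in 3 of 4 libraries, control round 1 being the exception with 1 UMI. Dok1 was at 50.2 CPM in members and 25.3 in panel G cells. Across injured members the M1ap and Loxl3 levels had a Pearson correlation of 0.22 over 54 cells of round 1 and 0.27 over 227 cells of round 2, values that share each cell's depth. For M1ap and Dok1 it was 0.34 and -0.02. Whether reads of 1 of these genes are counted for another was not tested.

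Matrix genes of both annulus zones were present in members. Collagens, decorin and their partners (Col1a1, Col1a2, Col3a1, Col5a1, Dcn, Lum, Aspn, Tnmd, Scx, Mkx, Dpt and Myoc) summed to 22835 CPM (control) and 46324 CPM (injured) in round 1 and to 36306 and 43195 CPM in round 2. The cartilage-like list (Acan, Col2a1, Col9a1, Col9a2, Col11a1, Hapln1, Sox9, Chad, Cnmd and Matn3) summed to 13559 and 10808 CPM in control and 16588 and 18782 in injured libraries. Markers of other cell types were mostly low. Macrophage or monocyte markers (10 genes) summed to 0 to 44.5 CPM and endothelial markers (8 genes) to 0 to 29.6 CPM by library. Neutrophil markers (6 genes) summed to 282 CPM in control round 1, from 19 UMIs, and to 0 to 41.5 CPM in the other libraries, and their part in the round 1 values was not tested. Mural markers (8 genes) summed to 193 and 276 CPM in control and 325 and 462 in injured rounds 1 and 2, against 190, 317, 318 and 368 in the other kept cells in that order. Most of this was Cspg4, a chondroitin sulfate proteoglycan, seen in 36.4% to 88.9% of members by library, and Pdgfrb, a growth factor receptor, seen in 18.2% to 31.7%, while Myh11 was at 0 in all 4 libraries and Rgs5 had 1 UMI in all. Of 10 nucleus pulposus or notochordal markers, 6 to 8 were at 0 by library, and Cd24a alone was seen in at least 25% of members.

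Outside the panels, members were described by the genes whose CPM exceeded that of the other kept cells in every library. Of 4337 genes seen in at least 20% of members, 311 were higher in all 4 libraries and 982 lower, and 7 were higher by at least 1 on the log2 scale in all 4. Since cells were chosen on expression, these counts carry no test. The 20 genes ranked by their smallest difference over the libraries were Chst3, Pstpip1, Ltbp2, Col1a2, Pth1r, Bgn, Nkd2, Sparc, Fxyd6, Pdgfrl, Col1a1, Cyb561, Sdc3, Papss2, Gprc5a, Marveld1, Shisa4, Gm41724, Lmcd1 and Ssr4.

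Of these, Sparc, a collagen-binding glycoprotein of bone and tendon, was at 5394 and 21050 CPM in members of control rounds 1 and 2 and at 14984 and 21089 in injured rounds 1 and 2. The other cells had 2818, 3750, 6145 and 6696 CPM in that order. Bgn, encoding biglycan, a small proteoglycan of the same superfamily as fibromodulin, was at 2119, 2664, 2781 and 3161 CPM in members, in the same order. Its lead over the other cells was 1.09 to 1.62 on the log2 scale. Ltbp2, a microfibril-associated latent TGF-beta binding protein, led by 1.13 to 2.32, and Col1a2, the second chain of collagen I, by 1.09 to 2.35. These leads are over all other kept cells together and do not show that panel G cells were lower. Col1a1, given below, was higher in panel G cells than in members in most libraries.

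The list also held 2 genes of sulfation. Chst3, which sulfates chondroitin at the 6 position, was at 29.6 and 50.3 CPM in control members (2 and 4 UMIs) and 22.9 and 74.8 CPM in injured ones, and led by 1.44 to 1.68 on the log2 scale. Papss2, which makes the sulfate donor and is needed for skeletal growth, led by 0.75 to 1.41. Both were lower in panel G cells in each library, with 0 to 46.8 CPM of Chst3 and 24.9 to 59.4 of Papss2. Panel A cells had 60.7 CPM of Chst3 and 303 of Papss2 in control round 2, above the members' 50.3 and 239, and were below members in the other 3 libraries.

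Receptors and signalling genes in the list were Pth1r, the receptor for parathyroid hormone and its related peptide (lead of 1.09 to 1.99), Nkd2, a feedback inhibitor of WNT signalling (1.04 to 3.35), and Sdc3, a heparan sulfate proteoglycan (0.79 to 1.30). Nkd2 was at 77.1 CPM in members over all libraries and at 4.67 to 19.8 CPM in panels A, B and G and the Aspn panel. In control round 1 the leads rest on 1 UMI of Nkd2, 3 of Pth1r and 2 of Sdc3. The leads of Pth1r and Sdc3 are over all other kept cells together. On the lower side stood Rbp4, the retinol carrier, with 104 and 88.0 CPM in control members and 30.1 and 73.9 in injured members against 439, 684, 232 and 256 CPM in the other cells. Cox4i2, a cytochrome oxidase subunit, and Il1r1, the interleukin-1 receptor, were also lower by more than 1 on the log2 scale in every library. Members of control rounds 1 and 2 held only 2 and 1 UMIs of Cox4i2 and 7 and 2 of Il1r1.

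Members ranged between the collagen I and the collagen II ends of the annulus. Col1a1, a collagen I chain, and Col2a1, the collagen II chain, were not used by the rule. Of 297 members thinned to 1000 UMIs, 163 held UMIs of both, 71 of Col1a1 only, 57 of Col2a1 only and 6 of neither. Both were held by 3 of 10 control and 23 of 54 injured members in round 1 (30% and 42.6%), and by 4 of 7 control and 133 of 226 injured members in round 2 (57.1% and 58.8%). The shares of the control and injured libraries overlap.

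In the injured members Col1a1 ran against Col2a1 and with Fmod and Comp. The correlation of Col1a1 with Col2a1 was -0.44 over 54 cells of injured round 1 and -0.42 over 227 cells of injured round 2. Col1a1 correlated with Fmod at 0.58 and 0.61 and with Comp at 0.55 and 0.53 in these libraries. Acan, encoding the core protein of aggrecan, correlated with Col2a1 at 0.61 and 0.51. Prg4 followed neither, at -0.07 with Col1a1 and 0.004 with Col2a1 in round 1 and 0.02 and -0.06 in round 2. These are descriptions over cells that share a library, and the values with Fmod, Comp and Prg4 are shaped by the choice of members.

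**Figure D2:**
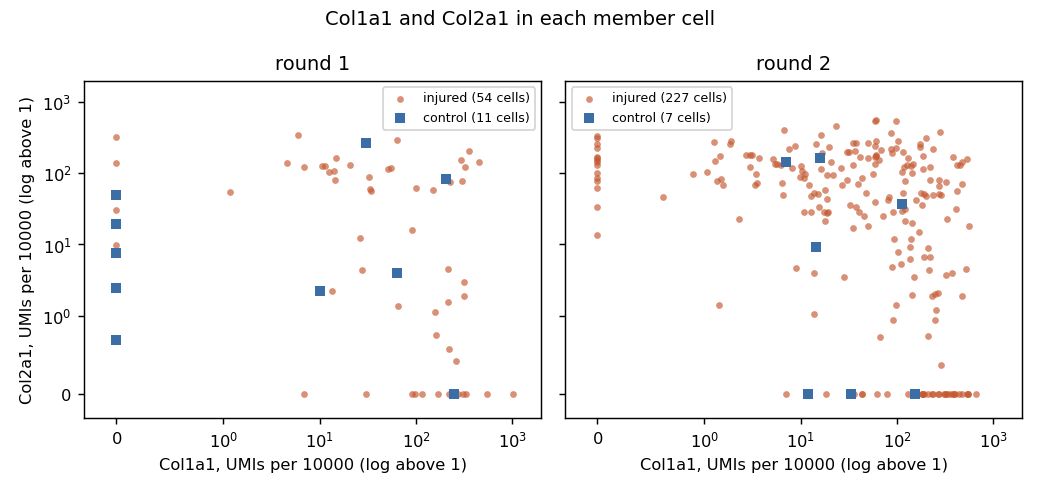
Col1a1 against Col2a1 in each member cell, in UMIs per 10000 on axes that are logarithmic above 1, for round 1 (left) and round 2 (right); circles are injured and squares control cells. Many cells hold both collagens, and cells high in Col1a1 include a group with no Col2a1 UMI.

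Members lay between the cells of panels A and G in Acan in all 4 libraries. Pooled over libraries, Col1a1 was at 13302 CPM in members, 10725 in panel G cells and 115 in panel A cells. By library, however, members were below panel G cells in 3 of 4, at 2282 against 3923 and 3770 against 4878 CPM in control rounds 1 and 2 and 16318 against 26166 in injured round 1, and above them in injured round 2 (13019 against 10760). Col2a1 was at 9221 CPM in members, 1272 in panel G cells and 6217 in panel A cells, pooled, and control round 2 had the reverse order of members and panel A cells (4172 and 7763). Acan was at 1044, 326 and 3486 CPM, pooled. Fn1, encoding fibronectin, was at 27668 CPM in members, 5838 in panel G cells and 19549 in panel A cells, pooled. Within single libraries Fn1 in members exceeded panel G cells in all 4, but panel A cells of control round 2 had 31496 CPM against 19064 in members.

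Members made up a larger share of the injured than of the control library in each round. They were 5.53% of kept cells in control round 1 (11 of 199, 95% exact binomial interval 2.79% to 9.68%) and 9.18% in injured round 1 (54 of 588, 6.97% to 11.8%). In round 2 they were 3.07% of control cells (7 of 228, 1.24% to 6.22%) and 16.2% of injured cells (227 of 1402, 14.3% to 18.2%). The intervals overlap in round 1 and not in round 2, and they cover counting error only. The difference was 3.66 percentage points in round 1 and 13.1 in round 2, and the mean share was 4.30% ± 1.74 (SD, n = 2) over control libraries and 12.7% ± 4.96 (SD, n = 2) over injured ones. The mean difference was 8.39 points, and the exact two-sided permutation test gave p = 0.33, the smallest that 2 against 2 libraries allow. Without the injured library of round 2 the difference was 4.88 points. When barcodes needed only 250 detected genes, the shares of round 1 were 8.13% and 9.05%, which differ by 0.93 points. Panel G cells, which shared Fmod, Comp and Prg4 with members, had shares in the opposite order. They were 17.6% and 24.1% of kept cells in control rounds 1 and 2, and 5.27% and 6.42% in injured rounds 1 and 2. Each cell counts only for its highest panel, so the shares of the panels depend on each other. How M1ap levels shape this split was not tested. A share of captured cells depends on how well each type survives digestion, freezing and sorting, which was not tested.

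**Figure D3:**
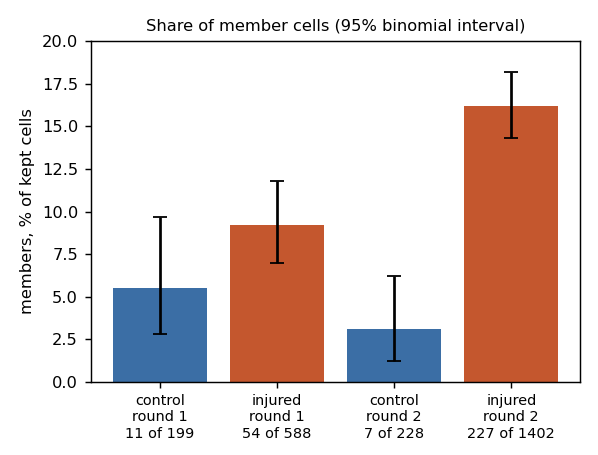
Members as a percentage of kept cells in each library; bars are shares and whiskers exact 95% binomial intervals. The injured bar is the higher one in both rounds, and the round 1 intervals overlap.

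Cycling was rare among members. At least 3 of 6 division genes were seen in 0 of 11 and 0 of 7 control members, 2 of 54 injured members of round 1 and 4 of 227 of round 2 (1.76%, 95% exact interval 0.48% to 4.45%). The 0 of 11 and 0 of 7 still allow shares of up to 28.5% and 41.0%.

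The injury comparison within members used summed counts and edgeR's quasi-likelihood test with Benjamini-Hochberg adjustment, calling genes whose adjusted p was under 0.05. With injury as the only term, 0 of 4711 genes outside the panels were called (0% of those tested), 281 had an unadjusted p under 0.05, and DESeq2 called 3. Control and injured discs came from the same animals, though the labels do not tie animals to rounds, and with round as a block 9 genes were called (0.191%), 2 higher (0.0425%) and 7 lower (0.149%) in injured members. On simulated data both of these edgeR fits called more unchanged genes than the threshold allows, so single calls are uncertain. With the block but without the barcodes shared in round 1, 0 of 3382 genes were called and 268 had an unadjusted p under 0.05. Without block, leaving out the control library of round 1 gave 27 calls among 7216 genes tested and that of round 2 gave 51 among 7676. Leaving out injured round 1 or 2 gave 0 calls, among only 1622 and 1634 genes tested, with 59 and 50 at an unadjusted p under 0.05. The calls named below come from the blocked fit, and the fit without block called none of these genes. The 3 that DESeq2 called were Timp1, Col1a1 and Irgm1.

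Timp1, an inhibitor of matrix metalloproteinases, was at 311 CPM (control) and 1666 CPM (injured) in round 1, and at 264 CPM (control) and 1605 CPM (injured) in round 2. Both injured libraries were above both control libraries, as for 861 of all 4711 genes tested (18.3%), and each control value rests on 21 UMIs. For 866 genes (18.4%) both injured libraries were below both control libraries. The log2 fold change was 2.62 ± 0.50 (SE), with an adjusted p of 0.313 in edgeR without block, 0.0271 with block, 0.242 with block and without shared barcodes, and 0.0031 in DESeq2. Loxl2, a lysyl oxidase family enzyme that cross-links collagen, was at 29.6 and 88.0 CPM in control rounds 1 and 2 and at 318 and 390 in injured rounds 1 and 2. The control values rest on 2 and 7 UMIs and do not overlap the injured ones. Its log2 fold change was 2.67 ± 0.61, with an adjusted p of 0.427 in edgeR without block and 0.0401 with block.

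The next genes on the higher side included several collagen genes and Lox beside genes of other kinds, and edgeR called none of them with or without the block. Col1a1 was at 2282 CPM (control) and 16318 CPM (injured) in round 1, and at 3770 CPM (control) and 13019 CPM (injured) in round 2. The log2 fold change was 2.37 ± 0.49, with an adjusted p of 0.313 in edgeR, 0.0753 with block and 0.0113 in DESeq2. In control round 1, 1 cell held 68.2% of the 154 Col1a1 UMIs. Col2a1 was at 1837 and 4172 CPM in control and 7309 and 10272 CPM in injured rounds 1 and 2, so both ends of the collagen range had higher values in injured members, with an adjusted p of 0.225 for Col2a1 in the blocked edgeR fit. Col11a2, a partner of collagen II fibrils, Col12a1, a fibril-associated collagen, Col5a1, a fibril-nucleating collagen, and Lox, the founding lysyl oxidase, had log2 values of 1.92, 1.99, 1.56 and 1.57. For Lox this was 3.92 without control round 1 and 0.91 without control round 2, and for Col2a1 it moved from 1.67 to 2.57 without control round 2. Ltbp2 (1.74), Ly6a, a surface antigen of progenitor cells (1.69), Yipf5, a Golgi membrane protein (2.64), and Bmp2, a bone morphogenetic protein (1.82), completed the list. The Bmp2 groups overlapped: injured round 2 had 512 CPM and control round 1 had 533. Without injured round 1 the Bmp2 value was 0.40, and without control round 2 the Ltbp2 value was 2.63.

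**Figure D4:**
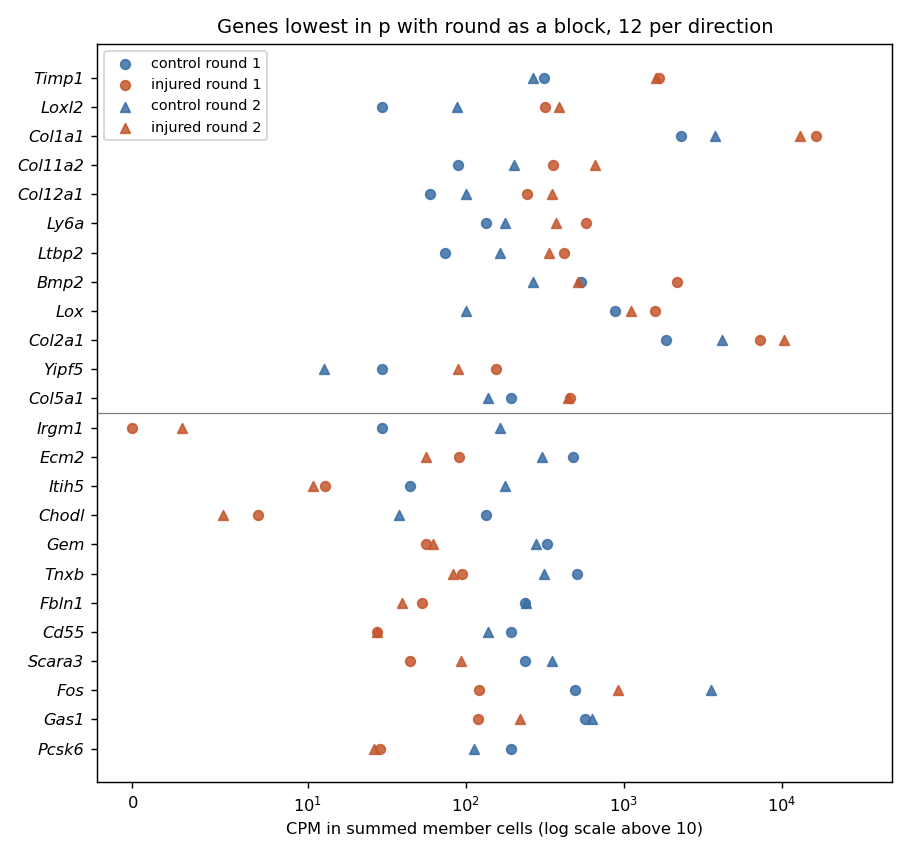
CPM of 24 genes in the summed members of each library, on an axis that is logarithmic above 10; the 12 upper genes were higher and the 12 lower genes lower in injured libraries, chosen by their p with round as a block. Circles are round 1 and triangles round 2; Bmp2 and Fos are the genes whose groups overlap.

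The 7 genes called lower with the block were Irgm1, Ecm2, Itih5, Chodl, Gem, Tnxb and Fbln1. Ecm2, a leucine-rich matrix protein, was at 474 CPM (control) and 90.3 CPM (injured) in round 1, and at 302 CPM (control) and 56.0 CPM (injured) in round 2. The groups did not overlap, as for 18.4% of all genes tested in this direction. The 32 control UMIs of round 1 came from 9 of 11 cells. The 24 of round 2 came from 4 of 7 cells, with 45.8% in 1 cell. Its log2 fold change was -2.32 ± 0.48, with an adjusted p of 0.313 in edgeR and 0.0292 with block. Tnxb, encoding tenascin X, a collagen-spacing matrix protein, was at 504 and 314 CPM in control and 94.6 and 83.3 in injured rounds 1 and 2 (blocked edgeR adjusted p = 0.0401). It was seen in 7 of 11 and 7 of 7 control members. Fbln1, encoding fibulin 1, a protein of elastic fibres and basement membranes, was at 237 and 239 CPM in control and 53.0 and 39.5 in injured rounds (blocked edgeR adjusted p = 0.0497). The control values rest on 16 and 19 UMIs, 68.4% of the latter in 1 cell.

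Gem, a small GTPase that limits calcium channel activity, was at 326 and 276 CPM in control members and 55.9 and 61.6 CPM in injured members. Itih5, a hyaluronan-binding protein of the inter-alpha-trypsin inhibitor family, was at 44.5 and 176 CPM against 12.9 and 10.8, from 3 and 14 control UMIs, 64.3% of the latter in 1 cell. Its log2 value was -3.16, and -1.61 without control round 2. Chodl, a membrane lectin, was at 133 and 37.7 CPM against 7.16 and 5.18, from 9 control UMIs (77.8% in 1 cell) and 3. The blocked edgeR adjusted p was 0.0401 for each of the 3. Irgm1, an interferon-inducible GTPase, was at 29.6 and 163 CPM against 0 and 2.82, but its control UMIs (2 and 13) came from 1 cell in each library. The remaining genes on this side were called neither with nor without the block and are given as log2 values: Cd55, a complement regulator (-2.46), Pcsk6, a proprotein convertase (-2.34), Scara3 (-1.94), Fos, an AP-1 subunit (-1.79, but 0.46 without control round 2 and -4.04 without injured round 2), and Gas1, a hedgehog co-receptor (-1.68).

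The same fit was read over gene lists, each set beside all genes tested. Over all 4711 genes the median log2 fold change was 0.05 and 52.5% were positive. Fibrous collagens and their cross-linking enzymes had the highest median, 1.02, with 18 of 22 tested genes positive, and 1 of them, Loxl2, was called with the block. The list's median was 1.34 in round 1 and 0.48 in round 2. Examples are Col1a2, at 2993 and 5152 CPM in control and 10908 and 8210 in injured rounds 1 and 2, and Col6a1, a microfibrillar collagen, at 1274 and 3594 against 4948 and 4595. Neither passed the test (edgeR adjusted p = 0.796 and 0.837).

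Lubricin, hyaluronan and superficial zone genes had the lowest median, -0.86, with 1 of 11 tested genes positive and none called in either edgeR fit. Abi3bp, a matrix protein that binds collagen, was at 6194 and 8734 CPM in control and 2445 and 2068 CPM in injured rounds 1 and 2 (log2 -1.63, edgeR adjusted p = 0.796). Clu, encoding clusterin, an extracellular chaperone, was at 2934 and 2086 against 1291 and 1273. Has1, a hyaluronan synthase, was at 356 and 201 against 97.4 and 111 CPM. Without the control library of round 1 the list's median was -0.28.

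Immediate early and heat shock genes, which also respond to tissue digestion, had a median of -0.58, with 4 of 29 positive and none called in either edgeR fit. Fos was at 489 and 3556 CPM in control and 120 and 922 in injured rounds 1 and 2, so the rounds differed more than the groups. Within rounds 1 and 2 its log2 ratio of injured over control was -1.98 and -1.94 (blocked edgeR adjusted p = 0.105). Without the control library of round 2 the list's median was 0.05, and with members restricted to scores over 1 it was 0.28. Handling of the libraries was not tested as a part of these values.

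**Figure D5:**
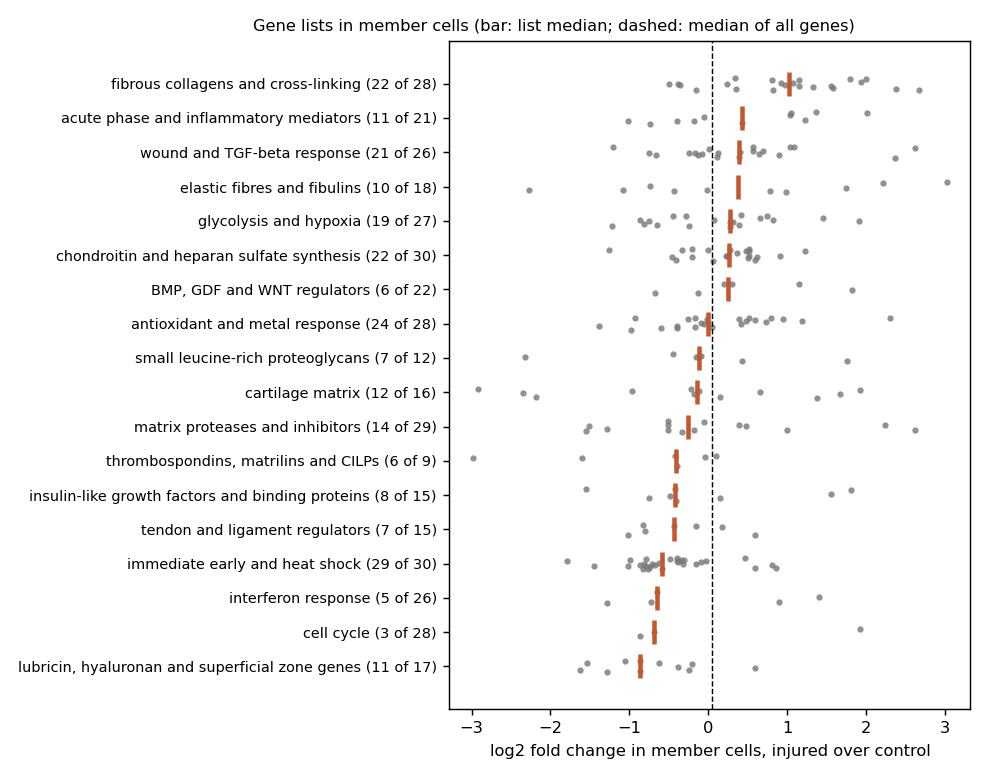
Log2 fold change, injured over control, of each tested gene of 18 lists within members; points are genes, bars list medians and the dashed line the median of all genes, 0.05. In brackets stands how many of the listed genes outside the panels were tested. Fibrous collagens sit highest and lubricin, hyaluronan and superficial zone genes lowest.

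The other lists lay nearer to the median of all genes or held few tested genes. Small leucine-rich proteoglycans had 2 of 7 positive with a median of -0.12, and Ecm2 was the one called with the block. Their main member, Dcn (decorin, which binds collagen I fibrils), was at 16730 and 24103 CPM in control and 16196 and 19127 in injured rounds 1 and 2. Cartilage matrix genes split, with 5 of 12 positive and a median of -0.15 (-0.62 in round 1 and 0.41 in round 2): Col2a1 and Col11a1 had higher values in injured members and Cytl1, a chondrocyte cytokine-like protein, lower ones (12107 and 1546 against 344 and 1275 CPM), none called. Matrix proteases and inhibitors had 5 of 14 positive. Timp2 was at 1497 and 1169 CPM against 427 and 439, opposite to Timp1, with a blocked edgeR adjusted p of 0.223. Htra1, a secreted serine protease, was at 1511 and 1960 against 489 and 602 CPM. Acute phase and inflammatory mediators had a median of -0.13 in round 1 and 2.87 in round 2, with 6 of 11 positive. Wound and TGF-beta response genes had 14 of 21 positive with a median of 0.39, with Timp1 called in the block. Elastic fibre and fibulin genes had 5 of 10 positive, with Fbln1 called lower.

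The rule genes within this comparison are a description only, since members were chosen by them. Injured over control, Prg4 had 6534 and 6803 CPM against 15130 and 15420, Fmod 2021 and 2029 against 1541 and 980, and M1ap 215 and 392 against 163 and 25.1. Comp had 3361 and 3865 against 5750 and 2350, with overlapping groups.

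A further test asked whether the injury difference in members itself differed from that in cells of panels A and B, in edgeR with terms for library, class and class by injury. It called 82 of 7496 genes outside the panels (1.09%), 33 with a more positive difference in members (0.44%) and 49 with a more negative one (0.654%). The direction was the same in both rounds for 75 of the 82. Without the barcodes shared in round 1, 33 genes were called, all of them among the 82. DESeq2 called 14, all among the 82. With a class by round term, which pairs the rounds, edgeR called 52 (replicate block). Without control round 1, injured round 1, control round 2 or injured round 2 the counts were 34, 20, 58 and 22, and 7 genes were called in all of these and without shared barcodes: Abi3bp, Col1a1, Dcn, Lox, Ptgis, Spp1 and Wif1. For 47 of the 82 a single control cell held over 50% of the members' UMIs of the gene in a control library.

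The mix of the comparison cells also moved with injury. Panel A cells were 6 of 59 and 10 of 108 panel A or B cells in control rounds 1 and 2, and 91 of 113 and 185 of 241 in injured rounds 1 and 2, and the part of this mix in the calls was not tested. Dcn in members was at 16730 and 24103 CPM in control and 16196 and 19127 in injured rounds, and in panel A and B cells at 877 and 785 against 6542 and 4926. The difference between the log2 changes was -2.87 ± 0.25 (SE), with an edgeR adjusted p of 2.25e-24. Within panel A cells alone Dcn was at 2632 and 2409 CPM in control and 6730 and 5515 in injured rounds.

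Spp1, encoding osteopontin, a matrix and signalling glycoprotein, had values in opposite directions. Members had 15959 and 16149 CPM in control and 36529 and 27209 in injured rounds 1 and 2, and panel A and B cells had 12715 and 6245 against 4403 and 1821. The difference between the log2 changes was 2.73 ± 0.24 (edgeR adjusted p = 9.69e-24, and 2.53e-06 without shared barcodes). Col1a1 stayed low in panel A and B cells, at 91.5 and 120 CPM in control and 136 and 96.3 in injured rounds, while the values in members differed as given above (difference 2.26 ± 0.30, edgeR adjusted p = 1.10e-10). Wif1, a secreted WNT inhibitor, was at 267 and 37.7 CPM in control and 305 and 304 in injured members, against 814 and 629 and then 158 and 125 in panel A and B cells (difference 3.60 ± 0.39, edgeR adjusted p = 1.25e-15). In control round 2 the Wif1 value of members rests on 3 UMIs.

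Against all other kept cells Dcn had a difference of -0.74 and Col1a1 of 0.97, neither called (edgeR adjusted p = 0.508 and 0.186). Called in that comparison were Spp1 with 2.39 (edgeR adjusted p = 2.26e-12), Wif1 with 3.43 (2.26e-12) and Abi3bp with -1.21 (0.0144). Against panel G cells the differences of Dcn, Spp1, Wif1, Col1a1 and Abi3bp were smaller in size than against panels A and B. The same test called 19 of 5026 genes (0.378%), 7 with a more positive (0.139%) and 12 with a more negative difference in members (0.239%), and Dcn had a difference of -0.78, Spp1 0.97, Wif1 1.41 and Col1a1 0.37, none of them called (edgeR adjusted p = 0.277, 0.0508, 0.352 and 0.976). Col1a1 in panel G cells was at 3923 and 4878 CPM in control and 26166 and 10760 in injured rounds 1 and 2, a change of the same direction as in members. Abi3bp was called against panel G cells too, with a difference of -1.32 (edgeR adjusted p = 0.0397), and against panels A and B it was -1.96 ± 0.28 (3.27e-09). With members of score over 1 the latter was -1.41 and not called (edgeR adjusted p = 0.469).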

How the data were processed

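Tail discs were profiled in 4 droplet libraries, 2 control and 2 injured. The authors deposited raw UMI counts for each gene and barcode, from Cell Ranger and mm10 per the submitters' processing notes (version 6.0.0 for control round 1 and 4 for the others, per the file headers). The control matrix of round 1 lists far fewer barcodes than the other 3 (6794880, 1229272 and 1194644). Library totals were 1114210, 8943537, 9891258 and 16972879 UMIs for control and injured round 1 and control and injured round 2. The members and all lists were chosen with earlier results of these data known, and members were chosen by expression, so rule genes, all panel genes and members against other cells carry no test. No doublets were removed; an alternative left out the top 5% of Scrublet scores (scanpy 1.11.5). Counts were summed per library over members and tested with edgeR 4.0.16 (R 4.3.3; default low-count filter, TMM, two-sided, Benjamini-Hochberg over all genes fitted). Standard errors come from the ratio of each log2 change to the root of its F statistic. DESeq2 1.42.0 was an alternative. Control and injured discs come from the same animals per the labels' protocols, which do not tie animals to rounds; over 4726 genes, round differences of control and injured members correlated at 0.33. The edgeR fits within members, with and without block, and the interaction fit without a class by round term were run on simulated data. There the fits within members called too many unchanged genes for a threshold of 0.05 and the interaction fit did not. The simulation gave all genes 1 common spread and no dominant single cells, so it does not vouch for calls set by 1 cell. Of 100 genes changed 4-fold, it recovered 48 without and 45 with block within members, and 31 in the interaction fit. The interaction fit has 2 residual degrees of freedom, so its p-values depend on the spread shared across genes. Named genes were the rule genes; the 20 genes with the largest smallest log2 lead over other cells (5 CPM added); 12 per direction for injury, called or else lowest in p with the block, with at least 20 UMIs and 1 direction in both rounds; called or most abundant genes of each list; and 8 interaction genes. Further genes named beside them (such as Loxl3, Dok1, Has1 and Cytl1) were chosen after their values were seen. All correlations over cells are Pearson's, of log levels. Gene positions come from GENCODE vM21, which holds 32158 of the 32285 gene IDs.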

Additional observations from a re-analysis of the deposited data

Results flagged for a closer look

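The injury difference in members departed from that in panel A and B cells, by the edgeR interaction test, for the 8 genes of lowest p. As log2 differences of the changes (members minus panel A and B cells), they were -2.87 for Dcn, 2.73 for Spp1, 3.60 for Wif1, 2.26 for Col1a1 and -1.96 for Abi3bp. Dcn and Col1a1 were not called against all other kept cells (edgeR adjusted p = 0.508 and 0.186). Dcn, Spp1, Wif1 and Col1a1 were not called against panel G cells. The comparison cells were mostly panel B in control and mostly panel A in injured libraries, and the part of this mix was not tested. Mgp, a mineralization inhibitor, had -2.39, with members at 830 and 1407 CPM in control and 1219 and 1005 in injured rounds 1 and 2 and the comparison cells at 183 and 1053 against 2156 and 3621. Mgp was not called in DESeq2 (adjusted p = 0.0727) or, in edgeR, without control round 1 (adjusted p = 0.103), without injured round 2 (0.0833), against all other kept cells (-0.77, 0.609) or against panel G cells (-0.43, 0.983). Penk, the enkephalin precursor, had -6.10, but the members' 25 UMIs of control round 1 came from 1 cell and control round 2 had 0; without control round 1 its edgeR adjusted p was 0.878. Ibsp, bone sialoprotein, had 11.77, a fitted value that depends on the prior count. Members held 0 UMIs in both control libraries and 9 and 42 in the injured ones (12.9 and 19.8 CPM). In the control members 3 UMIs would be 44.5 and 37.7 CPM, so the 0 values show no difference within members. Panel A and B cells had 1451 and 78.2 CPM in control (from 9 and 6 cells) and 88.6 and 1.29 in injured rounds (from 4 and 1). In injured round 1, 71.7% of their Ibsp UMIs came from 1 cell. Ibsp was not called in DESeq2 (adjusted p = 0.999) or, in edgeR, without control round 1 (adjusted p = 0.698).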

How the results depend on the processing

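Within members, the number of genes called was 15 without the low-count filter, 3 in DESeq2, 9 with the replicate block and 4 with scores over 1, and 0 to 51 when each library was left out in turn; without control round 1 it was 27 and without control round 2 it was 51. The other alternatives called 0. With the replicate block and no shared barcodes it was also 0. Against panels A and B, 14 genes were called in DESeq2, 33 without shared barcodes, 36 with scores over 1, 36 against all other kept cells, 19 against panel G cells and 20 to 58 with a library left out. With the replicate block in that test, as a class by round term that leaves 1 residual degree of freedom, it was 52, and the 8 genes of lowest p were called there too. The share difference stayed positive, from 4.88 points (without injured round 2) to 11.9 (without injured round 1), but with a minimum of 250 genes the round 1 difference was 0.93 points. Changes of sign were Fos at 0.46 without control round 2 (-4.04 to 0.46 with each library left out), Gas1 at 0.038 with scores over 1, and Penk at 3.57 without control round 1 (-7.10 to 3.57 with each library left out) and 3.66 with a score margin of 0.3. Of the named genes' injury values, 323 kept their side of the threshold, 34 passed it and 2 changed sign over the alternatives. Of the 8 genes' differences against panels A and B, 79 kept their side, 14 lost the call and 2 changed sign, and of the list medians 191 moved by less than the spread of the rounds and 83 by more. The comparisons with panel G cells and with at least 2000 UMIs per cell, the block without shared barcodes and the class by round term were chosen after seeing the data. With 18 control cells, a gene of few UMIs in 1 cell can set a control value.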
